A study of Rattus norvegicus with 12 samples.

Results

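The genes described here mark the contractile and storage states of hepatic stellate cells and of the pericytes and smooth muscle cells around liver vessels. They were named as a list of 10: Tagln, Acta2, Myl9, Cnn1, Des, Rgs5, Myh11, Tpm2, Pdgfrb and Lrat. A gene was taken from the value table where a row's annotation named it and no other gene, which gave 8 of the 10 among 18166 genes in all, each by 1 transcript cluster. No row names Acta2 or Cnn1 alone, so these were not analysed here. The values are log2 signals, made by the authors with RMA, from liver RNA of 12 male obese Zucker rats that all carry the fa mutation of the leptin receptor on both alleles. On Affymetrix Rat Gene 2.0 ST arrays, 1 rat per array, 6 rats had eaten a diet with 5% PSC and 6 a control diet without it and of similar energy and crude nutrient content. The series title ties the diet to an oyster mushroom grown by biotechnology and asks for its effects in the liver. At the start the rats had an age of 5 to 6 weeks, and after 4 weeks of feeding they were killed on day 29. Feeding groups held 12 rats each, of which the arrays cover 6. The rats shared cages in pairs, so cage mates among those on the arrays would not be fully independent.

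Stellate cells lie between the hepatocytes and the sinusoidal endothelium and store vitamin A as retinyl esters, which the enzyme encoded by Lrat, lecithin-retinol acyltransferase, makes. When the liver is injured they lose this store, take up an actin and myosin apparatus like that of smooth muscle, divide in response to platelet-derived growth factor and lay down matrix. Pericytes and vascular smooth muscle carry part of the same apparatus at all times. In whole liver RNA, fewer cells of a type and less RNA per cell cannot be told apart.

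All 8 measured genes had a lower mean on the PSC diet, but the change passed the test for 2 of them, Tagln and Rgs5, and for none in the other direction. At an unadjusted p below 0.05 it was 4 of the 8, with Myl9 and Des added, all lower, where 10.1% of all genes were lower and 9.02% higher. Tagln, which encodes the actin-binding protein transgelin of smooth muscle, fell to 52.7% of the control level. Rgs5, a regulator of G protein signalling that marks pericytes, fell to 71.5%. Myl9, Des, Tpm2, Myh11 and Pdgfrb had values of -0.08 to -0.28 on the log2 scale that did not pass, and Lrat, the marker of the resting state, had -0.20. Calls are from limma with an adjusted p below 0.05 over all genes, and by this rule 1.89% of all genes were lower and 0.716% higher. The median log2 change of the 8 genes was -0.20, against 0.013 over all genes, and 46.1% of all genes had a value below 0. No member separated the diets without overlap, and over all genes only 1.48% had every PSC array below every control array. With so small a share, its absence among 8 genes sets them apart in no way.

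Promoters of the genes, 250 bases before to 50 after the transcription start, were taken from RefSeq for the build GRCr8, where 4 of the 8 measured genes matched: Rgs5, Lrat, Des and Tpm2. Tagln, Myl9, Myh11 and Pdgfrb were not matched. The promoters of Rgs5, which fell, and of Lrat, which it is set against below, are shown from 5′ to 3′ on the gene's strand, with CG dinucleotides in capitals. Rgs5 lies on the plus strand with this window at chr13:84380827-84381126, and Lrat on the minus strand with its window at chr2:170571163-170571462.
Rgs5: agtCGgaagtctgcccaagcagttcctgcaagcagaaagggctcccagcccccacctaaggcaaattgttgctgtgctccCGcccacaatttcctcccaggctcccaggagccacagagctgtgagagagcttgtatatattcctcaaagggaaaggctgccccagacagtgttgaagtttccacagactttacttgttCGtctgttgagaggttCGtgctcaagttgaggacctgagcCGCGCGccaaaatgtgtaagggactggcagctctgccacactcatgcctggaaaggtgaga
Lrat: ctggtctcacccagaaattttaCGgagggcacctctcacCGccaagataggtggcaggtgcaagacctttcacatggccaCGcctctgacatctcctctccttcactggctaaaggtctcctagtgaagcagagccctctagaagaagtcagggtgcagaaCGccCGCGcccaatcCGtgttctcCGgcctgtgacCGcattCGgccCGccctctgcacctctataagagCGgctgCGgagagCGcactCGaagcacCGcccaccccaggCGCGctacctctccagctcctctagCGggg
The Rgs5 window holds 7 CG dinucleotides and the Lrat window 19, where the median over 33469 rat promoters of the table is 7, with quartiles of 3 and 19. The Des and Tpm2 windows hold 13 and 25. The CArG box, the consensus of serum response factor, which drives many smooth muscle genes, was searched as an exact match on both strands. It was found in 0 of the 4 windows and in 1.64% of all promoters. TATAAA, on either strand, was found in 0 of the 4 and in 14.2% of all promoters. These counts say only which letters stand in these windows.

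Among the genes of the contractile apparatus, Tagln changed most. Its log2 signal was 7.02, 6.93, 6.50, 6.98, 7.32 and 6.15 on PSC arrays 1 to 6, against 7.92, 7.65, 7.92, 7.71, 7.21 and 8.03 on control arrays 1 to 6. The groups overlapped only through PSC replicate 5, the highest of its diet, and control replicate 5, the lowest of its own. Tagln averaged 6.82 ± 0.42 in PSC-fed rats and 7.74 ± 0.30 in controls (SD, n = 6 each). The log2 difference was -0.92 with a 95% confidence interval of -1.30 to -0.54, a 1.90-fold fall (SE 0.18, limma adjusted p = 0.0183). The call held without 11 of the 12 arrays left out in turn, and without control replicate 1 the adjusted p was 0.05002.

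Myl9, the regulatory light chain of smooth muscle myosin, lay at a lowest, median and highest log2 signal of 6.28, 6.51 and 6.71 in PSC-fed rats, against 6.54, 6.81 and 6.92 in controls. Here 3 PSC arrays were below every control, and 5 controls were above every PSC array. The difference was -0.28 (95% confidence interval -0.45 to -0.11), and its adjusted p of 0.0759 in limma did not pass. Among genes brighter than the median of all genes, a smaller family of tests, Myl9 passed with an adjusted p of 0.0395.

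Tpm2, which encodes beta-tropomyosin along the actin filament, ranged from 3.91 over a median of 4.03 to 4.65 in PSC-fed rats, and from 4.08 over 4.36 to 4.52 in controls. PSC replicate 2 held the highest value of all 12 arrays, while the 4 PSC arrays with 4.06 or less lay below every control. The difference of -0.16 had a 95% confidence interval of -0.41 to 0.09 and did not pass (adjusted p = 0.472, limma). Myh11, the smooth muscle myosin heavy chain, ranged from 4.31 to 4.73 in PSC-fed rats and from 4.63 to 4.93 in controls, with medians of 4.67 and 4.68. Its value of -0.11 (95% confidence interval -0.28 to 0.06, limma adjusted p = 0.462) was -0.05 without PSC replicate 3. Des, the muscle intermediate filament desmin that also marks rat stellate cells, had lowest, median and highest signals of 4.77, 5.09 and 5.20 in PSC-fed rats, against 5.01, 5.29 and 5.43 in controls. Its difference was -0.20 (95% confidence interval -0.39 to -0.01, limma adjusted p = 0.232). Tpm2, Myh11 and Des lay below the median signal of all genes, 5.33, where RMA compresses differences. Detection calls were not used here, so these values set no limit on expression.

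**Figure D1:**
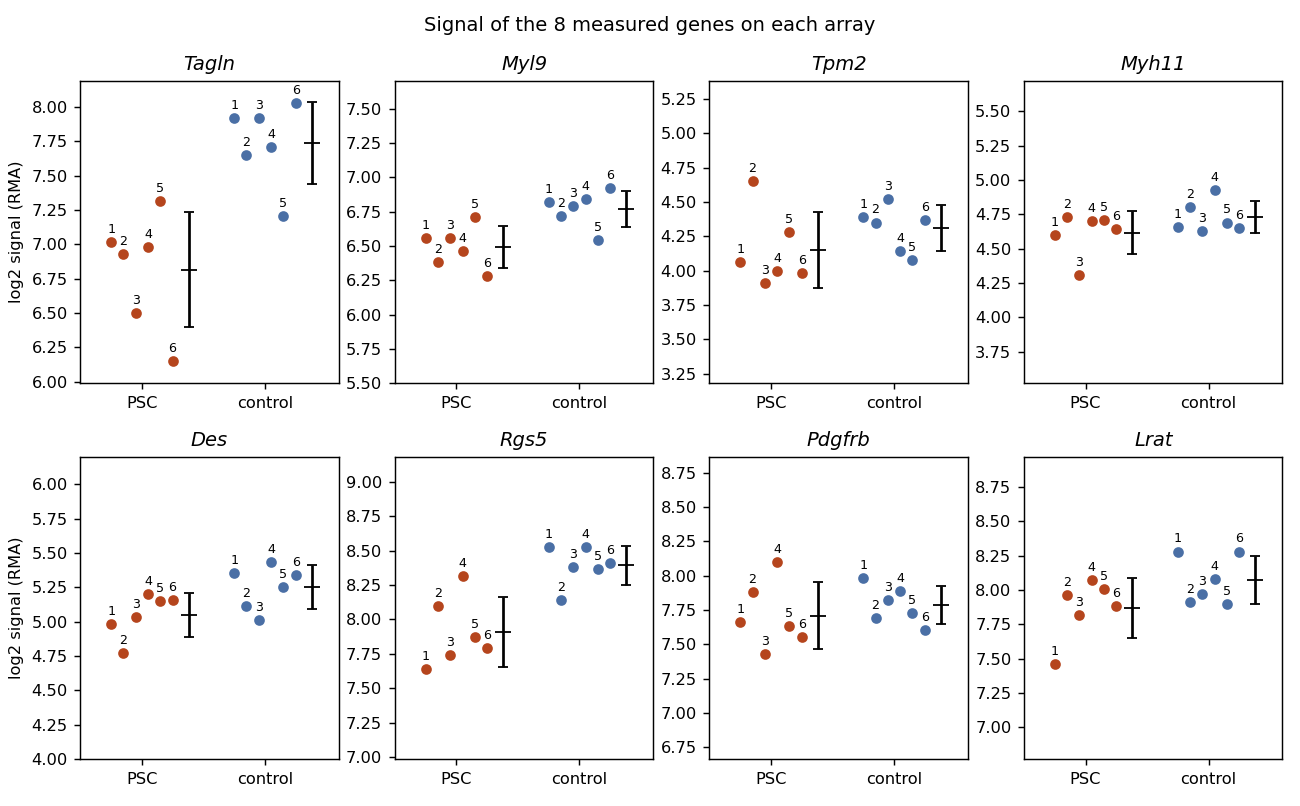
Log2 signal (RMA) of each of the 8 measured genes, with 1 panel per gene and axes of equal span. Points are single arrays with their replicate number, PSC left of control, and bars give the mean and SD of 6 arrays. Tagln and Rgs5 stand apart by diet except for single arrays, while the points of Pdgfrb intermingle.

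Rgs5 was the second gene that fell. Its log2 signal was 7.64, 8.10, 7.74, 8.32, 7.87 and 7.79 on PSC arrays 1 to 6, against 8.53, 8.14, 8.38, 8.53, 8.37 and 8.41 on control arrays 1 to 6. PSC replicate 4 was the only PSC array above the lowest control, and control replicate 2 was the only control below it. Rgs5 averaged 7.91 ± 0.25 in PSC-fed rats and 8.39 ± 0.14 in controls (SD, n = 6 each), a log2 difference of -0.48 (SE 0.11, 95% confidence interval -0.71 to -0.25, limma adjusted p = 0.0314). The call lay near the threshold, and leaving out 1 array often undid it. With each array left out in turn it held 3 times of 12, without control replicate 2, PSC replicate 2 or PSC replicate 4, and the adjusted p was 0.00576 without PSC replicate 4. Otherwise the adjusted p was up to 0.0765, the value without control replicate 1, while the difference kept between -0.57 and -0.43 in all 12. It was 0.0559 with all transcript clusters tested.

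Pdgfrb, the receptor through which platelet-derived growth factor B recruits pericytes and drives stellate cells to divide, had lowest, median and highest signals of 7.43, 7.65 and 8.10 in PSC-fed rats, against 7.60, 7.78 and 7.98 in controls. PSC arrays held both the lowest and the highest values. The difference of -0.08 had a 95% confidence interval of -0.30 to 0.14 (limma adjusted p = 0.72), so that both a fall and a rise of moderate size lie within it.

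Lrat had log2 signals of 7.46, 7.96, 7.82, 8.07, 8.01 and 7.88 on PSC arrays 1 to 6, against 8.28, 7.91, 7.97, 8.08, 7.90 and 8.28 on control arrays 1 to 6. PSC replicate 1 was the lowest, and control replicates 1 and 6 the highest. In this gene 3 PSC arrays were below every control, and 3 controls were above every PSC array. Lrat averaged 7.87 ± 0.22 in PSC-fed rats and 8.07 ± 0.17 in controls (SD, n = 6 each). The difference of -0.20 did not pass (95% confidence interval -0.42 to 0.02, limma adjusted p = 0.302), and it was -0.12 without PSC replicate 1.

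The contrast of the contractile genes with the storage gene was tested as the log2 signal of a gene minus that of Lrat on the same array. Of the 7 other members, 1 fell relative to Lrat, Tagln, and by this rule 0.418% of all genes were lower relative to Lrat. Tagln minus Lrat was -0.44, -1.03, -1.32, -1.09, -0.69 and -1.73 on PSC arrays 1 to 6, against -0.36, -0.26, -0.05, -0.37, -0.69 and -0.25 on control arrays 1 to 6. Only control replicate 5 reached into the PSC range. The difference of these differences was -0.72 (SE 0.15, limma adjusted p = 0.00164). Every gene in this fit shares the Lrat values, which raised the prior degrees of freedom to 86.5, against 4.82 in the fit of the diet alone. The SEs, confidence intervals and p-values relative to Lrat thus rest little on a gene's own spread and can be too small or too large. Tagln minus Lrat had an SD of 0.46 in PSC-fed rats and 0.21 in controls. For Tagln the unadjusted limma p was 8.32e-06, far below that of the exact test that follows. An exact permutation test of Tagln minus Lrat, two-sided over all 924 ways to assign the 12 arrays to the diets, gave an unadjusted p of 0.00649. This exact test was chosen after seeing the data.

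Rgs5 minus Lrat lay between -0.14 and 0.25 in PSC-fed rats and between 0.13 and 0.47 in controls, a difference of -0.28 that did not pass in limma (adjusted p = 0.166). The exact permutation test gave it an unadjusted p of 0.0216, 1 of 7 such tests, where the unadjusted limma p was 0.0496. For the other 5 members the change relative to Lrat lay between -0.08 (Myl9) and 0.13 (Pdgfrb) on the log2 scale. The 95% confidence intervals, with the limit given above for this fit, were -0.36 to 0.21 for Myl9 and -0.16 to 0.41 for Pdgfrb. For Des, Tpm2 and Myh11 the values were 0.0033, 0.04 and 0.09, and the sign of each turned under cyclic loess normalization. These 5 had exact permutation p-values of 0.368 or more, which does not show that they changed alike.

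**Figure D2:**
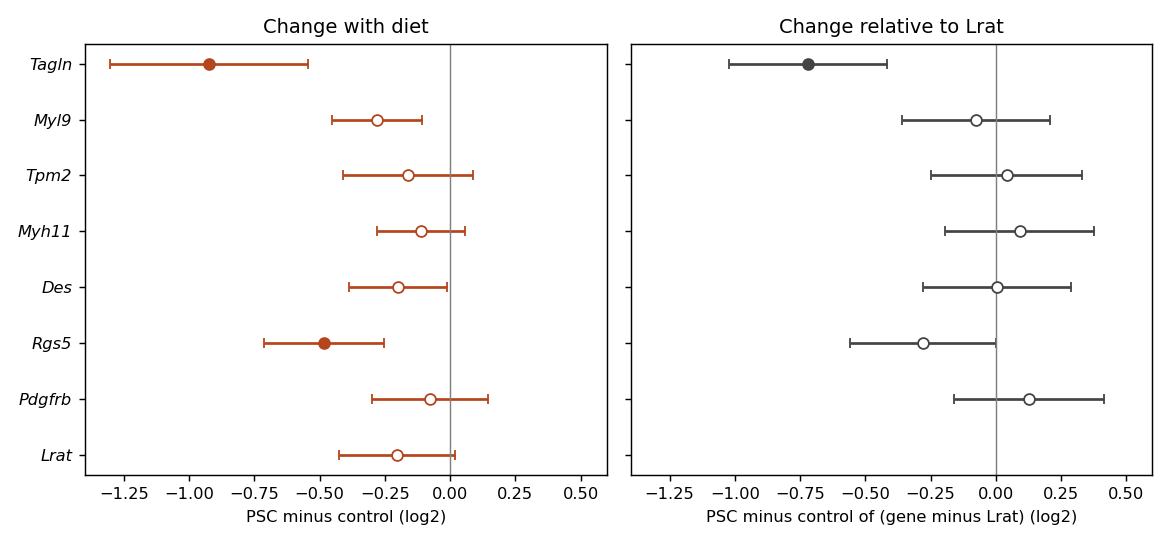
Log2 difference, PSC minus control, with 95% confidence intervals from limma (6 arrays per diet). The left panel gives each gene's own change and the right panel its change after subtraction of Lrat on the same array, with filled points at an adjusted p below 0.05 over all genes. Tagln lies left of 0 in both panels, at -0.92 and -0.72, and Rgs5 is filled only in the left one. Intervals of the right panel rest little on a gene's own spread.

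The PSC-fed rats differed among themselves in how far the genes fell. PSC replicates 1, 3 and 6 lay below every control for 6 of the 8 genes each. PSC replicate 2 lay below every control for 4 genes, PSC replicate 4 for 3 (Tagln, Myl9 and Tpm2) and PSC replicate 5 for 1 (Rgs5). Below the control mean for all 8 genes were PSC replicates 1, 3, 5 and 6, with 5 genes for PSC replicate 2 and 6 for PSC replicate 4. The shares of all genes below the control mean were not taken, so these counts mark no trait of the members. Over all genes, the PSC arrays lay below every control for 14.4% (PSC replicate 4) to 22.6% (PSC replicate 2). The shares were 19.3%, 15.6%, 20.2% and 22.0% for PSC replicates 1, 3, 5 and 6. The ratio of the SD in PSC-fed rats to that in controls ran from 1.00 for Des to 1.77 for Rgs5, with 1.74 for Pdgfrb. These ratios were not tested. The share of all genes with a larger SD in PSC-fed rats was not taken, so the ratios mark no trait of these genes.

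The array-to-array spread within a diet was used to ask which members varied together. Deviations from the diet means were correlated over 12 arrays for the 28 pairs, with permutation within diets and Benjamini-Hochberg adjustment over the pairs, and none passed. The closest pair was Rgs5 and Pdgfrb (Pearson r = 0.83, permutation p = 0.00427, adjusted p = 0.0867, and Spearman coefficient 0.70, permutation p = 0.0235, adjusted p = 0.22). Within the diets r was 0.90 in PSC-fed rats and 0.63 in controls, and it was 0.80 without the 2 arrays farthest from the median of Rgs5. PSC replicate 4 was highest of its diet in both genes.

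Tagln and Myl9 followed, with r = 0.79 (permutation p = 0.00619, adjusted p = 0.0867) and Spearman coefficient 0.73 (permutation p = 0.0149, adjusted p = 0.213). Here r was 0.71 in PSC-fed rats and 0.93 in controls, but 0.46 without the 2 arrays farthest from the median of Tagln, PSC replicate 6 and control replicate 5, on which the relation in part rests. Lrat ran closest to Rgs5 (r = 0.71, permutation p = 0.0172, adjusted p = 0.161, and Spearman coefficient 0.66, permutation p = 0.0152, adjusted p = 0.213), with 0.76 in PSC-fed rats, 0.63 in controls and 0.56 without the 2 farthest arrays. With Tagln its r was 0.31 (permutation p = 0.367, adjusted p = 0.784) and its Spearman coefficient 0.39 (permutation p = 0.223, adjusted p = 0.737), with 0.09 in PSC-fed rats, 0.71 in controls and 0.31 without the 2 farthest arrays.

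**Figure D3:**
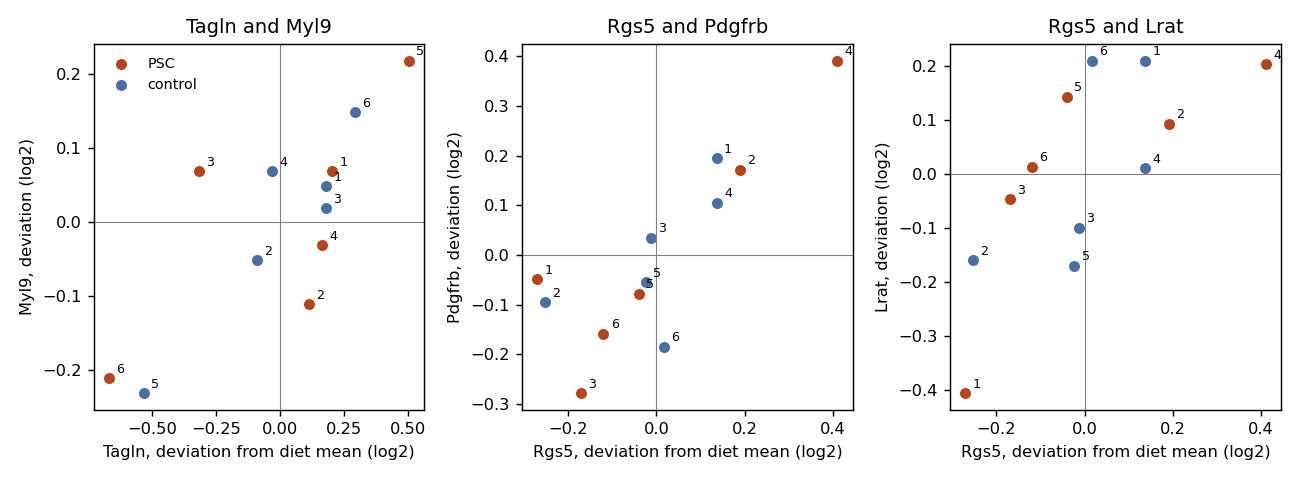
Deviation of 1 gene from its diet mean against that of another, in log2 units, for the 3 closest pairs. Each point is an array with its replicate number, PSC and control in different colours. For Rgs5 and Pdgfrb r was 0.83 over 12 arrays, 0.90 in PSC-fed rats and 0.63 in controls, but no pair passed after adjustment. PSC replicate 6 and control replicate 5 mark the low end for Tagln and Myl9.

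Outside the list, the genes whose deviations ran most like those of Tagln over the 12 arrays were Cfap300, Clstn2, Dlg2, Pdlim1 and Fcgbp, with r of 0.93, 0.92, 0.89, 0.87 and 0.87. These were picked as the highest of all genes, so the values are a description. Of them Pdlim1, a PDZ and LIM domain protein bound to actin fibres, also fell with the diet (-0.41, limma adjusted p = 0.0445), a call kept in 4 of the 12 fits without 1 array. The genes most like Lrat were Rbbp8, Wnk1, Fth1, Slc2a2 and Serinc5, with r of 0.94, 0.93, 0.91, 0.91 and 0.91. Rbbp8, which acts in the resection of DNA breaks, fell by 0.61 on the log2 scale (limma adjusted p = 0.00446), and all 12 such fits kept that call. By the same measure Myl9 stood 35th of 18165 genes in likeness to Tagln, and Rgs5 stood 370th in likeness to Lrat.

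The rest of the contractile apparatus changed in part. The list used here and those that follow were chosen with earlier results of these data known, so their counts are a description. Of 20 measured genes of a list of 22, 2 fell and none rose, with a median log2 change of -0.12 against 0.013 over all genes. By the same rule 1.89% of all genes were lower and 0.716% higher. Both are tropomyosins, which cells other than smooth muscle make too: Tpm1 averaged 6.71 ± 0.09 in PSC-fed rats and 7.16 ± 0.13 in controls (SD, n = 6 each), a difference of -0.45 (limma adjusted p = 0.00514). Tpm4 averaged 8.12 ± 0.15 in PSC-fed rats and 8.57 ± 0.20 in controls, also -0.45 (limma adjusted p = 0.0267). Tpm1 kept its call without any 1 array, and Tpm4 in 6 of the 12 fits. Of the 20 genes, 12 had values below 0. Tpm3 (-0.21), Vcl (-0.23), Flna (-0.28) and Cald1 (-0.15) did not pass but were lower at an unadjusted p below 0.05 in limma. By that rule 10.1% of all genes were lower and 9.02% higher. The other 18 genes did not pass. Among them were Actg2 (-0.20), Ppp1r14a (-0.17), Synpo2 (-0.09), Mylk (-0.04), Lmod1 (0.05) and Smtn (0.11), named after their values were seen. Actg2, Synpo2 and Lmod1 lay below the median signal of all genes, 5.33, where RMA compresses differences.

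Among regulators and targets of serum response factor and the actin cytoskeleton, 3 of 12 measured genes (of 13 in the list) fell and none rose. The median was -0.14, and 1.89% of all genes were called lower and 0.716% higher. Ccn1 and Ccn2 encode matrix-associated signalling proteins that respond to serum response factor and to YAP. Ccn1 averaged 7.15 ± 0.33 in PSC-fed rats and 7.80 ± 0.21 in controls (SD, n = 6 each), with -0.65 (limma adjusted p = 0.0266). Ccn2 averaged 5.50 ± 0.18 in PSC-fed rats and 6.06 ± 0.23 in controls, with -0.56 (limma adjusted p = 0.0186). Rock2, a kinase that raises myosin light chain phosphorylation, fell by 0.33 on the log2 scale (limma adjusted p = 0.0264). Ccn2 kept its call without any 1 array, Ccn1 in 6 and Rock2 in 8 of the 12 fits. Srf itself had -0.24 (limma adjusted p = 0.0816), and Myocd, its smooth muscle coactivator, had 0.14, named after its value was seen. Srf and Tead1 (-0.25) did not pass but were lower at an unadjusted p below 0.05 in limma, where 10.1% of all genes were lower.

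Of 14 other pericyte and mural cell genes 0 passed in limma, 9 had values below 0, and the median was -0.02. At an unadjusted p below 0.05, Mcam (-0.52) and Abcc9 (-0.27) were lower and Heyl (0.27), Foxs1 (0.20), Notch3 (0.19) and Cspg4 (0.22) higher, where 10.1% of all genes were lower and 9.02% higher by that rule. Of 5 platelet-derived growth factor genes, 1 fell, where 1.89% of all genes were called lower. It was Pdgfa (-0.23, limma adjusted p = 0.0413), a call kept in 3 of the 12 fits without 1 array. The other receptor gene Pdgfra also had -0.23 (limma adjusted p = 0.14, unadjusted p = 0.0123). Of 13 measured genes of retinoid storage and the resting stellate cell, 0 passed in limma, 7 had values below 0, and the median was -0.03. By the unadjusted rule 2 of the 13 were lower and 2 higher, beside 10.1% and 9.02% of all genes. Reln, which encodes reelin, had -0.28, and Hgf, the hepatocyte growth factor gene, had -0.35, while Pparg had 0.35 and the retinol transporter gene Stra6 had 0.18.

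Of 10 matrix genes of stellate cells and fibroblasts 4 fell and 0 rose, with a median of -0.35, where 1.89% of all genes were called lower and 0.716% higher. Dcn (-0.88), Col1a2 (-0.58) and Loxl1 (-0.55), which encode decorin, a type I collagen chain and a collagen cross-linking enzyme, kept their calls without any 1 array, and Col3a1 (-0.30) in 2 of the 12 fits. Col1a1 (-0.365), Timp1 (-0.54) and Sparc (-0.20) did not pass but were lower at an unadjusted p below 0.05 in limma. By that rule 10.1% of all genes were lower and 9.02% higher. Averaged per array, the contractile list lay at 6.34 to 6.4265 in PSC-fed rats and at 6.431 to 6.534 in controls. In the same order, the regulator list lay at 6.70 to 6.77 and 6.85 to 7.00. The matrix list lay at 6.094 to 6.44 and 6.438 to 6.73. In the pericyte, platelet-derived growth factor and retinoid storage lists the ranges of the diets overlapped. Neither these means nor the counts of the lists were compared by a test.

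**Figure D4:**
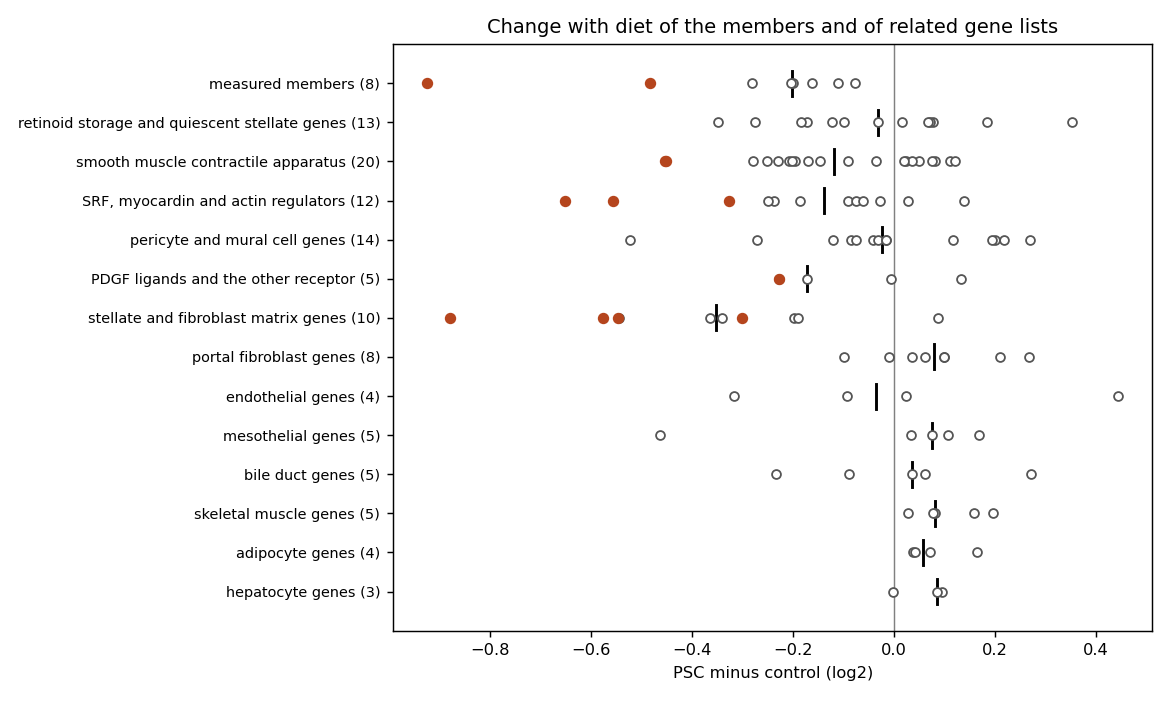
Log2 difference, PSC minus control, for each measured gene of the 8 members and of 13 related lists, with the number of genes in brackets. Each point is a gene, filled at a limma adjusted p below 0.05 over all genes, and the black bar is the list's median. Filled points lie left of 0 and occur among the members, the contractile, regulator, platelet-derived growth factor and matrix lists.

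Markers of other cells that could carry these genes were read beside them. Unadjusted p-values in this paragraph and the next stand beside 10.1% of all genes lower and 9.02% higher at a p below 0.05. Of 8 portal fibroblast genes 0 passed in limma and 2 had values below 0, with mean signals of 5.73 to 5.91 in PSC-fed rats and 5.70 to 5.80 in controls. Gli1 (0.27) and Thy1 (0.21) had an unadjusted p below 0.05. Of 5 skeletal muscle genes 0 passed and 0 had values below 0, with means of 4.61 to 4.83 in PSC-fed rats and 4.46 to 4.73 in controls. Tnnc2 and Tnnt3 had 0.20 and 0.16, and 0 had an unadjusted p below 0.05. In 4 endothelial genes (means of 6.88 to 7.10 in PSC-fed rats and 6.75 to 7.10 in controls), Vwf (-0.32) and Lyve1 (0.44) had an unadjusted p below 0.05 in limma, and 0 passed.

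Of 5 mesothelial genes 0 passed (means of 4.52 to 5.01 in PSC-fed rats and 4.41 to 5.16 in controls), with Upk3b at 0.17 and Lrrn4 at -0.46, and 0 had an unadjusted p below 0.05 in limma. Of 5 bile duct genes 0 passed (means of 4.28 to 4.45 in PSC-fed rats and 4.29 to 4.40 in controls), with Krt19 at 0.27 and Epcam at -0.23, the 2 with an unadjusted p below 0.05 in limma. Of 4 adipocyte genes 0 passed (means of 5.23 to 5.52 in PSC-fed rats and 5.25 to 5.43 in controls), with Lep at 0.17, the 1 gene with an unadjusted p below 0.05 in limma, and Adipoq at 0.07. Hepatocyte markers checked the tissue: Alb averaged 13.16 ± 0.04 in PSC-fed rats and 13.16 ± 0.01 in controls (SD, n = 6 each), and the 3 measured markers had means of 12.53 to 12.60 in PSC-fed rats and 12.46 to 12.57 in controls, with Ttr at 0.10 and Serpina1 at 0.09. In each of these lists the ranges of the diets overlapped, and their part in the falls of Tagln and Rgs5 was not tested.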

How the data were processed

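Total RNA from liver pieces of 12 rats, 6 per diet, was hybridised to arrays. Per the submitters' processing notes, the authors made the deposited log2 signals per transcript cluster by RMA in Affymetrix Expression Console. This method corrects background, quantile normalizes and summarises probes, which evens out arrays and compresses dim differences. Neither versions nor the array's genome build were stated in the sources used here. RNA integrity was 8.01 ± 0.38 over the 12 samples per the labels, with no value per sample, and array medians were 4.71 to 4.85. The number of arrays limits the precision.

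Of 30347 clusters, 18511 have 1 gene symbol in the platform annotation, 575 have several and 11261 have none. The brightest cluster stood for each of 291 genes with more than 1 cluster, which left 18166 genes. Groups came from the sample titles. Diets were compared by limma 3.58.1 (R 4.3.3) with empirical Bayes moderation, in two-sided tests adjusted over all genes by Benjamini-Hochberg, at a threshold of 0.05. The same test was run on log2 signals minus that of Lrat. Correlations used 100000 permutations within diets. Related genes came from 13 lists of 120 genes, of which 108 were measured. The members and lists were chosen with earlier results of these data known. Named are all members, of each list those that passed and the 2 with the smallest p, and the 5 genes most like Tagln and Lrat. Others were named after their values were seen. On data simulated with the means and spreads of the 18166 genes, limma recovered 75% of 100 genes with a log2 change of 0.5 and 99% of 100 with a change of 1. Alternatives were other normalizations, filters, variance models, a block for the replicate number, array weights and leaving out arrays. Figures used matplotlib 3.10.9.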

Additional observations from a re-analysis of the deposited data

Results flagged for a closer look

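The Myh11 signal of PSC replicate 3, 4.31, lay far below that of the other PSC arrays, which held 4.60 or more: its gap to the nearest of them was 0.69 of the range of the 6 arrays. Chance gives such a value in about 1 in 20 groups, and 16 groups of 6 arrays were examined, so 1 such value is about what chance gives. Without that array the Myh11 difference was -0.05 in place of -0.11.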

How the results depend on the processing

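Tagln and Rgs5 kept a negative difference under all alternatives, including each array left out, and their calls depended on some. With the replicate number as a replicate block, 0 members were called (adjusted p = 0.0701 for both), 78 genes were lower and 16 higher. The numbers share no stated pairing: deviations of same-numbered arrays correlated at -0.151 to 0.111, and 1 of 6 PSC arrays, replicate 5, ran most like the control of its number. Such a block spends degrees of freedom, and a call missed under it is no sign of a smaller change. With all transcript clusters tested, 1 member was lower (Tagln), with 198 genes lower and 56 higher. Among genes brighter than the median, 609 were lower, and Myh11, Tpm2 and Des were left out. At an adjusted p below 0.1, 3 members were lower, with Myl9 added, 738 genes were lower and 402 higher. Leaving out 1 array gave 0 to 2 members lower, 0 higher, 113 to 543 genes lower and 29 to 192 higher.

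Relative to Lrat, the count of 1 member lower held under every alternative run in limma. Values near 0 changed sign: Des had -0.0598 under quantile normalization and -0.0614 under cyclic loess, Tpm2 had -0.0646 and -0.0684, and Myh11 -0.0024 under cyclic loess. Without 1 array, Des lay between -0.0643 and 0.0777 and Tpm2 between -0.0403 and 0.112. Of all called genes, 72.5% were lower in PSC as deposited, 65.6% under quantile normalization (the lowest share) and 83.0% with the replicate block (the highest). Scaling moved the median of all genes by less than 0.1.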
